A study of Rattus norvegicus with 6 samples.

Results

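The genes described here are the 8 carriers and carrier chaperones that move glucose, fructose and lactate across the cell membrane: Slc2a1, Slc2a3, Slc2a5, Slc16a1, Slc16a3, Slc16a7, Bsg and Emb. They were chosen by name, and all 8 are among the 21170 genes listed in the count tables. Slc2a1 and Slc2a3 encode the glucose carriers GLUT1 and GLUT3, and Slc2a5 encodes the fructose carrier GLUT5. Slc16a1, Slc16a7 and Slc16a3 encode MCT1, MCT2 and MCT4, which carry lactate and pyruvate together with a proton. Bsg (basigin) and Emb (embigin) encode membrane proteins that bring these lactate carriers to the cell surface, embigin being known as a partner of MCT2.

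In the testis, Sertoli cells take up glucose, break it down to lactate and export the lactate, and meiotic and haploid germ cells are known to depend on it as fuel. A lactate carrier in the germ cell membrane is the entry side of this exchange. Mature sperm of rodents carry MCT2 along the tail, and male mice without basigin are sterile.

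The tissue was testis of SD rats, 3 control animals and 3 animals exposed to terrifying sound as a psychological stress, with 1 single-cell library per animal. Age, the length of the sound treatment and the time of sampling were not given in the sources used here. The libraries held 409 to 2506 cells, 11744 in all, with a median of 27987 to 41632 counts per cell. Stressed replicate 1 stood apart: it was the smallest library, with 409 cells and 16756543 counts against 73650164 to 114984746 in the others, and 227 of its cells lay in a cluster led by Apoe, Fos and Cd74 that received no name. Of all barcodes, 2 were seen in more than 1 library.

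Cells were clustered without the 8 genes and named from marker genes. This gave 1396 spermatocyte-like cells (meiotic), 4486 round spermatid-like cells (haploid, before elongation) and 5556 elongating spermatid-like cells, and a mere 20 spermatogonia-like cells. A further 286 cells, 227 of them of stressed replicate 1, formed the unnamed cluster. Its best-supported list was elongating spermatid, with 15 supporting markers, but its leading genes held more markers of another list. No cluster took the name of Sertoli, Leydig or any other somatic cell, so the supplying side of the lactate exchange was not sampled as a cell class. Of the 11 Sertoli markers found, 2 to 8 were at 0 in the germ cell classes of each library, and Amh was at 0 in all of them. The summed level of that list was 778 to 910 CPM (counts per 1000000 counts of the summed cells) in control and 782 to 915 in stressed spermatocyte-like cells. Clusters were also ordered along development by their spermatocyte and elongating spermatid markers and merged into 10 steps. Steps 1 to 3 are spermatocyte-like, with Psma8 and Piwil1 leading step 2 and Aurka and Cdca8 step 3. Steps 4 to 7 are round spermatid-like, and steps 8 to 10 elongating spermatid-like, step 9 with Tnp1 and Prm2 and step 10 with Oaz3, Smcp and Odf1 among the leading genes. Libraries of the same group were not spread evenly over the clusters of a step. In step 5 the cluster led by Tex29 held 238, 3 and 533 cells of control replicates 1 to 3 and 0, 46 and 280 of stressed replicates. The cluster led by 1700122O11Rik held 59, 228 and 3 of control and 39, 198 and 92 of stressed replicates. Control replicates 1 and 3 and stressed replicate 3 thus had more cells in the former, and the other libraries of both groups in the latter. In step 9 the cluster led by Serpina1 held 212, 2 and 353 of control and 0, 65 and 210 of stressed replicates. Median genes per cell ran from 1426 (stressed replicate 1) to 2772 (control replicate 2). The part of such library differences in the levels and shares was not tested. Levels are CPM of the counts summed over the cells of a library in a class or step, and are given where a library had at least 20 such cells. Step 1 had fewer than 20 cells in every library, and stressed replicate 1 reached 20 cells in steps 4 to 7 alone. CPM values are not corrected for gene length, so levels of different genes are not compared. The levels by class and step are a description, with no test, because the classes come from the same cells.

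Slc2a3, the GLUT3 glucose carrier, was abundant in meiotic cells and scarce after them. In spermatocyte-like cells control replicates 1 to 3 had 645, 272 and 280 CPM, and stressed replicates 1 to 3 had 377, 252 and 266 CPM. Control replicate 1 was the highest, and the other libraries of both groups lay between 252 and 377 CPM. Round spermatid-like cells of the same libraries had 10.9, 2.61 and 6.65 CPM (control) and 4.45, 3.53 and 8.80 CPM (stressed). No library's round spermatids came near the lowest spermatocyte value. The log2 ratio of round spermatid-like over spermatocyte-like cells was -5.91 ± 0.66 (SD, n = 6), a 60.3-fold lower level, with the same direction in 6 of 6 libraries.

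The step-wise levels place most of this difference at the end of meiosis. In step 2, Slc2a3 was at 942, 693 and 551 CPM in the controls and at 422 and 535 CPM in stressed replicates 2 and 3. In step 3 it was at 519, 125 and 231 CPM and at 165 and 173 CPM in the same libraries. Every library was lower in step 3 than in step 2, although the ranges of the 2 steps overlapped (log2 ratio -1.51 ± 0.60, SD, n = 5). In step 4, the first round spermatids, it was at 21.9, 8.22 and 18.5 CPM in the controls and 1.69, 10.9 and 14.7 CPM in the stressed libraries. The ranges of steps 3 and 4 did not overlap, and the log2 ratio was -3.92 ± 0.40 (SD, n = 5), or 15.2-fold lower. From step 4 to step 5 the log2 ratio was -1.81 ± 0.40 (SD, n = 5) in the libraries with more than 3 counts in both. The ranges of these steps overlapped, at 1.69 to 21.9 and 1.74 to 8.93 CPM. Of the 6 libraries, 5 were lower in step 5 and 1 was higher, stressed replicate 1, which had 1 count in step 4. From step 6 on, no library exceeded 16.4 CPM, and 52 of the counts of stressed replicate 3 in round spermatid-like cells came from 1 cell.

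The number of cells with a count gave the same picture. Slc2a3 was detected in 81.8% ± 10.8 (SD, n = 6) of spermatocyte-like cells, 6.10% ± 2.27 of round and 2.66% ± 1.48 (SD, n = 5) of elongating spermatid-like cells. In the 40 cells of step 1, pooled over libraries, 55.0% held a count, and in the 383 cells of step 2, 96.1%. When each cell was thinned to 10000 counts, the class means were 67.3%, 2.99% and 1.18%. A count of the late spermatid gene Prm2 was found in 69.1% of spermatocyte-like cells (median 32782 counts). Counts of the spermatocyte genes Sycp1, Psma8 and Piwil1 were found in 38.9%, 11.6% and 5.26% of round spermatid-like cells. Whether free RNA in the droplets gave such counts was not tested. The Slc2a3 shares of a few percent in spermatids are therefore not read as expression.

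**Figure D1:**
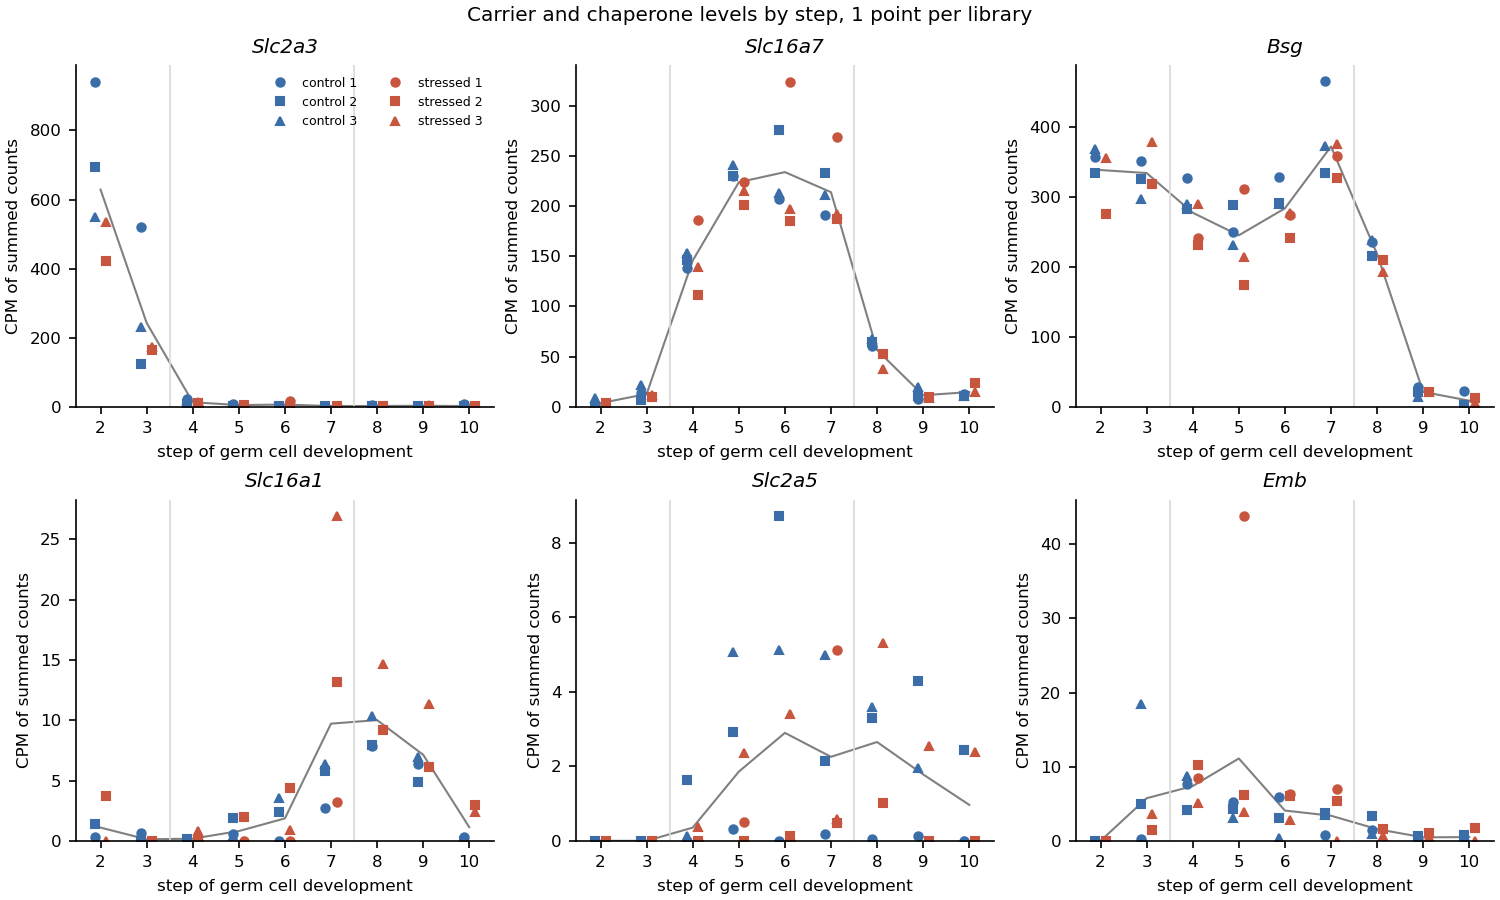
Level of 6 of the 8 genes (CPM of summed counts, each panel with its own linear axis) in steps 2 to 10, with 1 point per library of at least 20 cells, blue for control and red for stressed, and a grey line through the mean of the libraries. Light vertical lines part spermatocyte-like, round and elongating spermatid-like steps; Slc2a3 is high in steps 2 and 3, Slc16a7 in steps 4 to 7, and Bsg from step 2 to step 8.

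Slc2a1, the GLUT1 carrier found in most somatic cells, was close to absent. It had 72 counts in 38 of the 11744 cells. No germ cell class of any library of at least 20 cells exceeded 0.44 CPM, and 0.324% of all cells held a count.

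Slc2a5, the fructose carrier, had 0 counts in all 1396 spermatocyte-like cells, so that the share of such cells with a count could be as high as 0.215% and its level over the class as high as 0.0579 CPM. In spermatids it had counts in a few percent of cells at most, and the libraries of both groups differed among themselves. Round spermatid-like cells had 0.15, 3.05 and 3.87 CPM in control and 1.82, 0.17 and 1.91 CPM in stressed replicates. Elongating spermatid-like cells had 0.07, 3.75 and 3.05 CPM in control libraries and 0.55 and 4.04 CPM in stressed replicates 2 and 3. Control replicate 1 and stressed replicate 2 were the lowest libraries in both classes. The share of spermatocyte-like cells, 0 of 1396 at a median depth of 32782 counts, is set beside these shares, and the median depth was 38988 counts in round and 32375 in elongating spermatids. That share and its limit are pooled over libraries. Of the 1396 cells, 472 were of control replicate 1 and 226 of stressed replicate 2, the libraries lowest in spermatids too. Whether free RNA adds to the spermatid counts was not tested. The levels rest on few cells: 3, 29 and 24 round spermatid-like cells with a count in control replicates, and 4, 2 and 17 in stressed ones. The round spermatid-like cells numbered 781, 719 and 1212 in control and 140, 716 and 918 in stressed replicates.

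**Figure D2:**
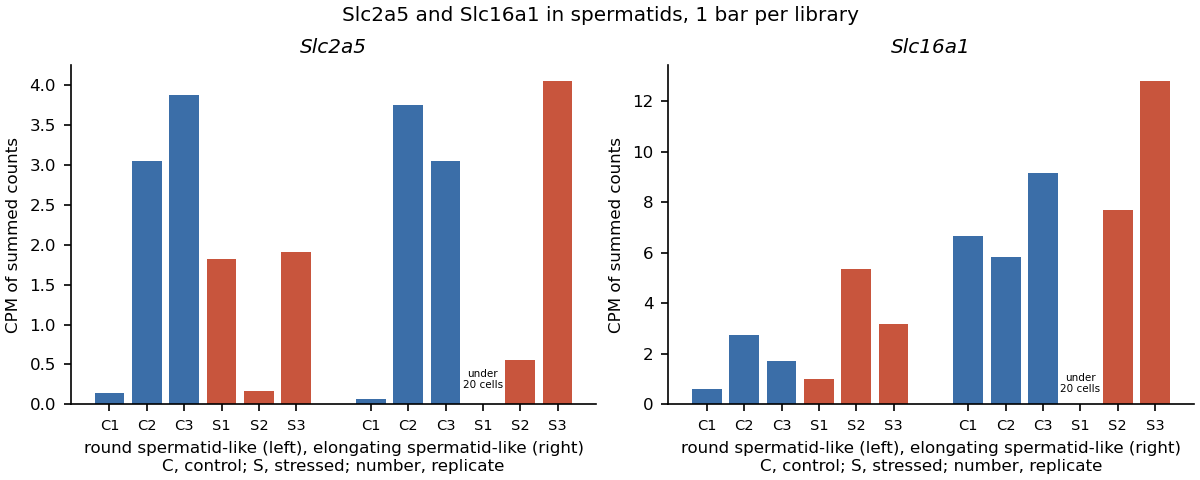
Bars show the level (CPM of summed counts, linear axes from 0) of Slc2a5 and Slc16a1 in each library in round (left) and elongating (right) spermatids, blue for control and red for stressed; each bar is 1 library, so there is no error bar. Slc2a5 is near 0 in control replicate 1 and stressed replicate 2, and Slc16a1 is higher in elongating than in round spermatids in every library shown in both.

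Slc16a7, the MCT2 lactate carrier, was most abundant in round spermatids. It was at 9.83, 4.62 and 19.6 CPM in control and 6.92, 6.81 and 9.15 CPM in stressed spermatocyte-like cells. Round spermatid-like cells had 192, 220 and 211 CPM in control and 250, 180 and 189 CPM in stressed replicates. The log2 ratio of round spermatid-like over spermatocyte-like cells was 4.59 ± 0.75 (SD, n = 6), 24.1-fold higher, in 6 of 6 libraries. Elongating spermatid-like cells had 36.2, 33.2 and 52.7 CPM in control libraries and 33.3 and 24.6 CPM in stressed replicates 2 and 3. The log2 ratio to round spermatid-like cells was -2.50 ± 0.36 (SD, n = 5), 5.67-fold lower, in 5 of 5 libraries.

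It became abundant at the same boundary where Slc2a3 became scarce. Slc16a7 was between 0 and 8.98 CPM in step 2 and between 6.93 and 21.5 CPM in step 3. In step 4 it was between 112 and 186 CPM, with no overlap, and the log2 ratio was 3.56 ± 0.57 (SD, n = 5). Step 5 lay higher again, at 201 to 241 CPM, in 6 of 6 libraries (log2 ratio 0.63 ± 0.19, SD). Steps 6 and 7, at 185 to 325 and 187 to 269 CPM, overlapped with step 5 and with each other. In step 8 the level was 37.5 to 67.7 CPM and in step 9 7.67 to 19.6 CPM, both without overlap with the step before (log2 ratios -1.87 ± 0.29 and -2.37 ± 0.46, SD, n = 5). Step 10, at 10.7 to 23.5 CPM, overlapped with step 9.

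A count of Slc16a7 was found in 8.81% ± 3.00 (SD, n = 6) of spermatocyte-like, 85.1% ± 5.22 of round and 25.4% ± 3.33 (SD, n = 5) of elongating spermatid-like cells. At 10000 counts per cell the means were 4.24%, 67.4% and 14.5%. Cells that held both Slc2a3 and Slc16a7 were few on each side of the boundary. In step 3, 68 of 973 cells (6.99%) held both, and the product of the separate shares was 7.88%. In step 4, 87 of 1120 cells (7.77%) did, against a product of 8.66%. Both shares, pooled over libraries, lay slightly under the product.

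**Figure D3:**
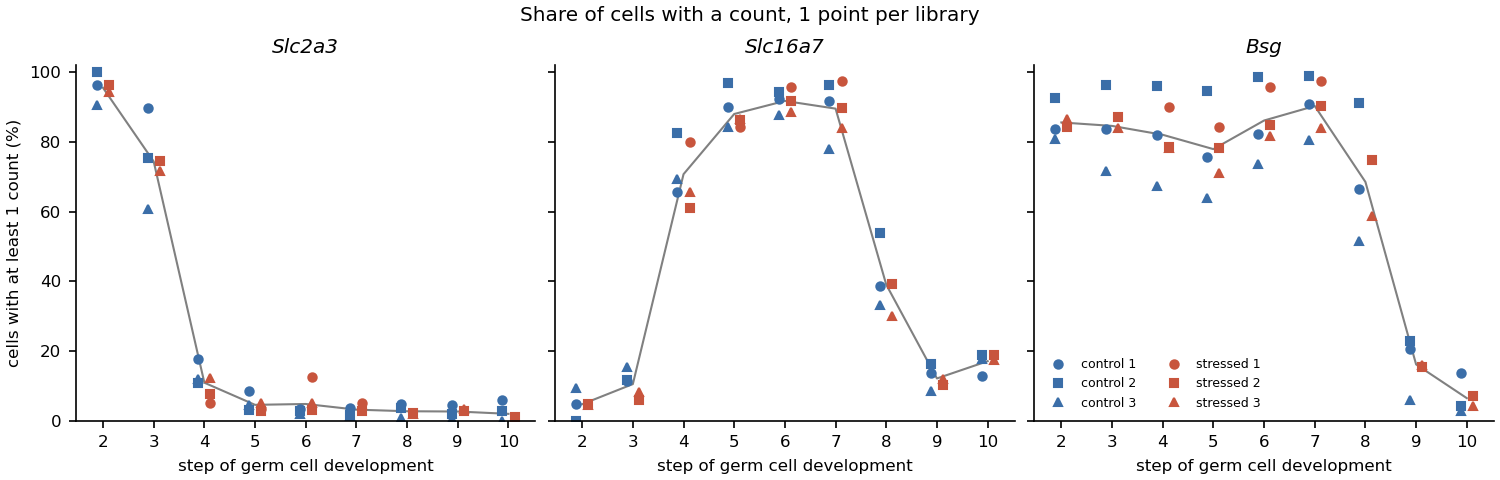
Percentage of cells with at least 1 count of Slc2a3, Slc16a7 and Bsg in steps 2 to 10, with 1 point per library of at least 20 cells, blue for control and red for stressed, and a grey line through the mean of the libraries. Slc2a3 is common in steps 2 and 3 and Slc16a7 from step 4 to step 7, and Bsg is common up to step 8.

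Among steps 2 to 10, Slc16a1, the MCT1 lactate carrier, had its highest levels in steps 7 to 9. Earlier cells were too few for a level per library. In the 40 cells of step 1, pooled over libraries, 20% held a count of Slc16a1. Of the spermatogonia-like cells, 2 of 9 in control replicate 2 and 1 of 6 in stressed replicate 2 held one, and none in the other libraries did. In steps 2 to 6 no library exceeded 4.37 CPM. In step 7 it was at 2.72, 5.83 and 6.41 CPM in control and at 3.21, 13.2 and 27.0 CPM in stressed replicates, higher than in step 6 in 6 of 6 libraries. It was between 7.83 and 14.7 CPM in step 8 and between 4.88 and 11.3 CPM in step 9. In step 10 it was between 0 and 2.99 CPM, with no overlap with step 9. By class, the log2 ratio of elongating over round spermatid-like cells was 1.89 ± 1.14 (SD, n = 5), in 5 of 5 libraries. Even so, the share of elongating spermatid-like cells with a count was no more than 2.99% to 8.62% per library (n = 5), beside 0% to 4.17% of spermatocyte-like cells (n = 6). Within each of the 5 libraries the share was higher in elongating than in spermatocyte-like cells, and the part of free RNA in these low shares was not tested.

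Slc16a3, the MCT4 carrier that exports lactate from glycolytic cells, had 45 counts in 27 of 11744 cells. Its highest level in a germ cell class of at least 20 cells was 0.24 CPM. In spermatocyte-like cells it had 1 count.

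Bsg, the basigin chaperone, was present in all 3 large classes and, among steps 2 to 10, low in the last steps alone. The few spermatogonia-like cells, too few for a level, mostly held it as well. Those with a count of Bsg were 2 of 2, 9 of 9 and 0 of 1 in control replicates 1 to 3. In stressed replicates 1 to 3 they were 1 of 1, 5 of 6 and 1 of 1. In spermatocyte-like cells Bsg was at 355, 324 and 308 CPM in control and at 629, 302 and 372 CPM in stressed replicates. Stressed replicate 1 was the highest, and 201 of its 546 counts came from 1 of its 24 cells. Round spermatid-like cells had 319, 301 and 275 CPM in control and 312, 242 and 265 CPM in stressed libraries. Elongating spermatid-like cells had 137, 101 and 169 CPM in control and 123 and 114 CPM in stressed libraries. The log2 ratio of round over spermatocyte-like cells was -0.37 ± 0.34 (SD, n = 6) in plain CPM and 0.49 after scaling by the factors of edgeR's TMM method, so its direction depends on the scale. The ratio of elongating over round was -1.14 ± 0.32 (SD, n = 5) in CPM and 0.14 after the same scaling. TMM scaling moved every class ratio up by 0.86 (round over spermatocyte-like) or by 1.26 to 1.28 (elongating over round). Of the other members' mean ratios given here it turned none. In single libraries it turned some: elongating over round was then above 0 in 2 of 5 libraries for Slc2a3 and in 1 of 5 for Emb, against 0 of 5 in plain CPM.

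By step, Bsg lay between 174 and 465 CPM in steps 2 to 7. It was higher in step 7 than in step 6 in 6 of 6 libraries, by a log2 ratio of 0.39 ± 0.10 (SD). It stood at 193 to 239 CPM in step 8 and at 14.0 to 27.4 CPM in step 9, and neighbouring ranges did not overlap. The log2 ratio of step 9 over step 8 was -3.41 ± 0.39 (SD, n = 5), a 10.6-fold lower level, and centring on the median gene, an alternative added after the data were seen, left it at -2.97. The same centring left the step 3 to 4 ratios at -3.69 for Slc2a3 and 3.79 for Slc16a7. Bsg was still found in 16.5% of the 2433 cells of step 9 and in 7.72% of the 337 cells of step 10, pooled over libraries. In step 8, 30.8% of 2786 cells held both Bsg and Slc16a7, against a product of the separate shares of 25.1%. These shares are pooled over libraries and over the 5 clusters of step 8. By library the share was 51.6% to 91.2% for Bsg and 30.2% to 53.9% for Slc16a7 (n = 5). The part of the pooling in the higher joint share was not tested, so it is not read as a link within cells.

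Emb, the embigin chaperone, was detected in 285 cells. Its levels in round spermatid-like cells were 5.44, 4.00 and 4.01 CPM in control and 22.0, 6.55 and 3.57 CPM in stressed replicates. Stressed replicate 1 stood above all others there, with 109 counts in 17 cells, 27 of them in 1 cell. Elongating spermatid-like cells had 0.79, 1.79 and 0.65 CPM of Emb in control libraries and 1.38 and 0.56 CPM in stressed replicates 2 and 3. The log2 ratio to round spermatid-like cells was -2.30 ± 0.67 (SD, n = 5), with the same direction in 5 of 5 libraries in plain CPM. The ratio of round over spermatocyte-like cells varied too widely to give an order (1.39 ± 2.33, SD, n = 6, higher in 5 of 6). Of the 100 counts of control replicate 3 in spermatocyte-like cells, 38 came from 1 cell. In steps 4 and 5, where 68.8% and 88.1% of the cells held a count of Slc16a7, 5.54% and 4.27% held a count of Emb.

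Reference promoters are shown for 3 genes with different stage patterns, to set side by side the start regions of Slc16a7 (abundant from step 4), Slc16a1 (highest in steps 7 to 9) and Bsg (abundant from step 2 to step 8). RefSeq promoters on assembly GRCr8, 250 bases before to 50 after the gene start, were found for 7 of the 8 genes. The sequences are written 5′ to 3′ on the gene's strand, with capitals for TGACG, the half-site of the cAMP response element bound by CREM, an activator of spermatid genes, and for GGGCGG, the GC box bound by Sp1, each on either strand (CGTCA and CCGCCC read on the other strand). The start regions are chr7:63040349-63040648 (minus strand) for Slc16a7, chr2:194812410-194812709 (plus strand) for Slc16a1 and chr7:10650956-10651255 (minus strand) for Bsg.
Slc16a7: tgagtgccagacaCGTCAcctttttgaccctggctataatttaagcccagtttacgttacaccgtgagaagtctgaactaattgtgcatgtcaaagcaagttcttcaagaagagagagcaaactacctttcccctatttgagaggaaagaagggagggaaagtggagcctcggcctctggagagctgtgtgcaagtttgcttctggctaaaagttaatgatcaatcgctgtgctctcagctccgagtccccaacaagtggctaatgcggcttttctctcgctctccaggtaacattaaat
Slc16a1: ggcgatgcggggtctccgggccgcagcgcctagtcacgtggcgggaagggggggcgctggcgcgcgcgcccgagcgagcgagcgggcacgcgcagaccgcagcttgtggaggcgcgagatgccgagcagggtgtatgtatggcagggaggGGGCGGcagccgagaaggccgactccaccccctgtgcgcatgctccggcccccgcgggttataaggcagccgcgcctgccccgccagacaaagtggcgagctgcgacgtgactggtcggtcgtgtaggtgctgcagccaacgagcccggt
Bsg: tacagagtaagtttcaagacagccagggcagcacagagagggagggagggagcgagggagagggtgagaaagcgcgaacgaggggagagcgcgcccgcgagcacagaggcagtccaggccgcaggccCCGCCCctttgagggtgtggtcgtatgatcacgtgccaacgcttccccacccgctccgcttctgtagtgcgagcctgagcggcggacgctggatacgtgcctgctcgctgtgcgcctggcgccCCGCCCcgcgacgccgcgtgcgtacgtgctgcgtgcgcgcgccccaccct
The Slc16a7 region held 8 CpG dinucleotides and 46.7% GC, 1 match of TGACG that begins 237 bases before the gene start, and no match of GGGCGG. The Slc16a1 region held 39 CpG and 72.7% GC with 1 match of GGGCGG, and the Bsg region 35 CpG and 69.0% GC with 2 matches of GGGCGG, both without TGACG. The median promoter of the table held 7 CpG, with quartiles of 3 and 19. Of the 33469 promoters of that length, 21.2% held TGACG and 33.1% held GGGCGG. The full TGACGTCA, found in 1.83% of promoters, was in none of the 7. A match describes these letters and is not evidence of binding.

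For each gene, the genes with the most similar pattern were named from log2(CPM + 1) over 79 sums of a library and cluster, among 4678 genes with a symbol and a mean of at least 10 CPM. The sums share libraries, cell totals and the course of development, so the correlations are a description. For Slc2a3 they were Parp1, a DNA break sensor, Echdc1 and Stk25 (Pearson r 0.92, 0.92 and 0.91). For Slc16a7 they were Pttg1ip2, Cast, which encodes the calpain inhibitor calpastatin, and Cfap100, a cilium and flagellum protein (r 0.94 each). For Bsg they were Ube2d2, a ubiquitin-conjugating enzyme, Lancl1 and Ndufb4, a subunit of respiratory complex I (r 0.97, 0.95 and 0.95). The scarcer genes had weaker neighbours. Among the genes most like Slc16a1 were Hsd17b13 and Unc93a (r 0.83 and 0.79), and Emb was most like Lrrc37a, Osbpl6 and Bri3 (r 0.78, 0.75 and 0.75). For Slc2a5 the list began with Snap91, Pfkfb4, which sets the level of a glycolytic activator, and Zfp42l at r 0.59, 0.54 and 0.51.

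The study asks whether stress disturbs sperm formation, and the comparison of the 2 groups asks whether these carriers differed with it. None of the 8 genes differed between stressed and control rats past the threshold, in any class or in the whole libraries. Sums per library were tested with edgeR's quasi-likelihood test, and a gene was called at a Benjamini-Hochberg adjusted p under 0.05 over all genes tested. In spermatocyte-like cells 0 of 4 tested members were called, against 0% of 10077 genes, and for 0 of them did the libraries of the groups not overlap, against 8.73% of genes. In round spermatid-like cells 0 of 6 were called, against 0.0161% of 12446 genes, and 0 were without overlap, against 7.26%. In elongating spermatid-like cells, where stressed replicate 1 had 17 cells and was left out, 0 of 6 were called against 0.00893% of 11193 genes, and 0 were without overlap against 16.1%. Another 227 cells of that library lay in the unnamed cluster, whose best-supported marker list was elongating spermatid. With that cluster counted as elongating, no member was called either. In the whole libraries 0 of 7 were called, against 0.00689% of 14519 genes. DESeq2 called 0 of the members as well. At an unadjusted p under 0.05 there were 0 members in spermatocyte-like cells (1.92% of all genes tested), 0 in round (2.03%) and 0 in elongating spermatid-like cells (2.27%), and 1 in the whole libraries, Slc16a1 (1.38%). A p that misses the threshold does not show that levels were equal, so the changes are given with their standard errors.

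In round spermatid-like cells the log2 change of Slc16a7 (stressed over control) was 0.08 (SE 0.21) and that of Bsg -0.03 (SE 0.18), with an adjusted p of 1.00 for both. In spermatocyte-like cells the log2 change of Slc2a3 was -0.36 (SE 0.33), and 0.12 without control replicate 1, the highest library. That of Bsg was 0.44 (SE 0.26), and 0.15 without stressed replicate 1, whose Bsg count rests in part on 1 cell. In that library's spermatocyte-like cells the 10 stromal markers summed to 1021 CPM, with 3 at 0 (Col1a1, Col3a1 and Lum), against 0 to 30.3 CPM in the controls with 1 to 10 at 0, and the 13 macrophage markers to 181 CPM, with 4 at 0, against 40.7 to 54.2 CPM with 4 to 9 at 0; their part in the result was not tested. Among elongating spermatids, Slc16a7 differed by a log2 value of -0.42 (SE 0.30) and Bsg by -0.13 (SE 0.26).

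Slc16a1 was the 1 member whose groups did not overlap in the whole libraries. In the whole libraries it was at 3.26, 4.64 and 4.52 CPM in control and at 8.24, 6.41 and 6.58 CPM in stressed replicates. All 3 stressed libraries lay above all 3 controls, which 5.56% of all genes did in one or the other direction. The log2 change was 0.93 (SE 0.40), with an unadjusted p of 0.039 and an adjusted p of 1.00 by edgeR. Of the 138 counts of stressed replicate 1, 131 came from 6 cells of the unnamed cluster, and without that library the log2 change was 0.78. Within the classes the groups overlapped, with log2 values of 1.07 (SE 0.72) in round and 0.57 (SE 0.36) in elongating spermatids. The sum of a whole library alone does not part more cells of the stages that hold Slc16a1 from more RNA per cell, and the part of each was not tested.

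Emb had the largest log2 change in round spermatid-like cells, 1.31 (SE 0.60, unadjusted p 0.055, adjusted p 1.00 by edgeR), which was 0.32 without stressed replicate 1. Summed markers of T and natural killer cells in its round spermatid-like cells stood at 18.8 CPM with 7 of 10 at 0 (Cd3e, Cd3g and Cd2 among them), against 1.57 to 4.44 CPM with 5 to 7 at 0 in the controls. Stromal markers stood at 44.7 CPM with 1 of 10 at 0 (Lum), against 2.17 to 24.1 CPM with 0 to 4 at 0, and macrophage markers at 105 CPM with 1 of 13 at 0 (Cd163), against 65.3 to 90.5 CPM with 0 to 2 at 0; their part in the value of Emb was not tested. The fitted log2 value of Slc2a5 there was -0.91 (SE 1.09), and leaving out 1 library at a time moved it between -1.51 and -0.30. Slc2a1 and Slc16a3 were under the filter on low counts in every class, and so were Slc2a5 and Slc16a1 in spermatocyte-like cells.

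Whether the effect of stress differed between stages was tested in 1 model with a term for the difference. No member passed for round minus spermatocyte-like or for elongating minus round cells, and 0% of 15119 genes did in either. For Slc16a7 the 2 differences were 0.38 (SE 0.49) and -0.40 (SE 0.50) on the log2 scale, and for Bsg -0.37 (SE 0.28) and 0.04 (SE 0.31). Shares of cells with a count were compared by 2-sided exact permutation tests of the group means, 24 in all, of which none can go below p = 0.1. The smallest p was 0.2, for Slc16a7 in spermatocyte-like cells (9.11%, 7.93% and 14.5% of cells in control and 8.33%, 5.75% and 7.26% in stressed replicates), and every adjusted p was 1.

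**Figure D4:**
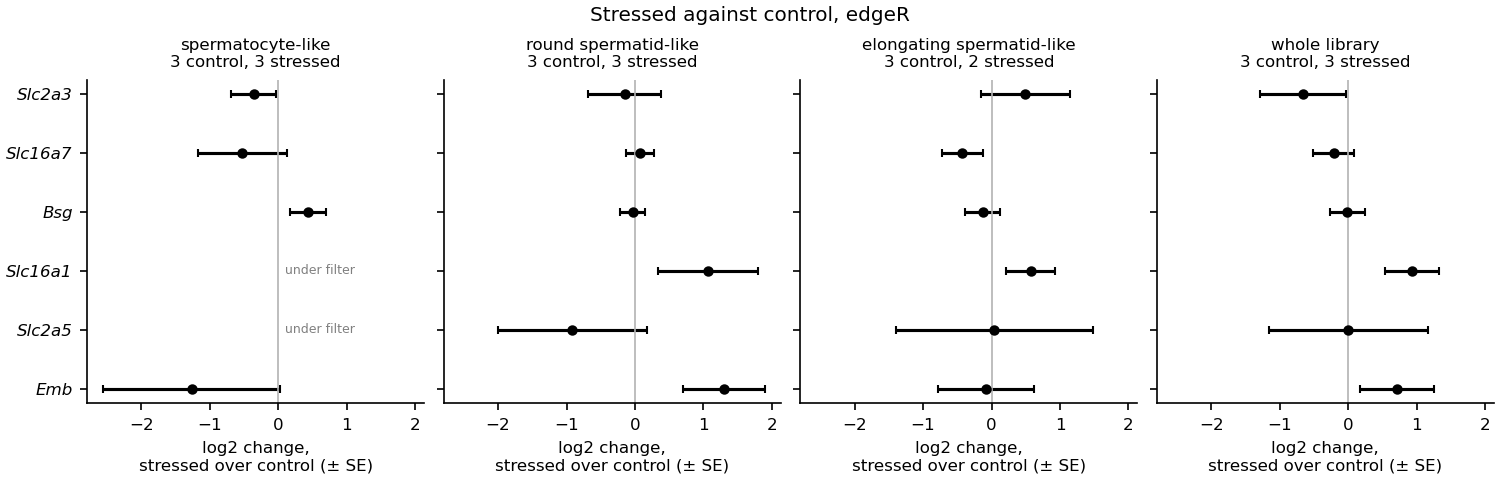
Points show the log2 change of stressed over control from edgeR for 6 of the genes in 3 germ cell classes and in whole libraries, and bars show the standard error; genes under the filter on low counts are marked. The bars of Slc16a7 and Bsg in round spermatid-like cells span 0, and no gene shown passed the adjusted threshold.

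The wider pathway was read from 4 lists. In each class and in the whole libraries 0 genes of any list were called. Of the 12 other glucose and fructose carriers written in the list, 10 were found in the tables and 2 passed the filter in round spermatid-like cells. Of the 14 other monocarboxylate carriers and chaperones, 11 were found and 2 passed there. Of the 27 genes for the fate of glucose and lactate in the cell, 23 were found. In round spermatid-like cells 18 of them were tested, 8 with a higher and 10 with a lower value in stressed animals, with a median log2 change of -0.14 beside 0.01 over all genes. Among elongating spermatids 4 had a higher and 14 a lower value, with a median of -0.18 beside -0.03, and in spermatocyte-like cells 6 were higher and 11 lower, with a median of -0.18 beside -0.03. The whole libraries leaned the other way, with 11 higher and 9 lower and a median of 0.08 beside -0.01. Of the 12 regulators of glucose uptake, 11 were found and 5 tested in round spermatid-like cells, 3 higher and 2 lower. The counts were 1 higher and 4 lower in elongating spermatids, 1 and 2 in spermatocyte-like cells, and 6 and 3 in the whole libraries.

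Ldha, the lactate dehydrogenase subunit of most glycolytic tissues, had the smallest p of these genes in a class. In round spermatid-like cells it was at 327 ± 83.2 CPM in control and 199 ± 48.3 CPM in stressed animals (SD, n = 3), a log2 change of -0.63 (SE 0.25) with an unadjusted p of 0.032 and an adjusted p of 1.00 by edgeR. Its log2 change in elongating spermatids was -0.32 (SE 0.26). Hk1, the hexokinase that starts glycolysis, was at 432 ± 54.5 and 320 ± 36.9 CPM in spermatocyte-like cells (log2 change -0.37, SE 0.22). Akt2, a kinase of insulin signalling, was lower in spermatocyte-like cells by the fit (log2 change -1.30, SE 0.61) and in elongating spermatid-like cells (-0.75, SE 0.53), with an adjusted p of 1.00 for both by edgeR. The other genes named by the same rule were Dld (-0.82, SE 0.49) in spermatocyte-like cells, Ldhb (1.70, SE 0.80) and Pdk2 (-0.33, SE 0.27) in round, and Akr1b1 (1.19, SE 0.87) in elongating spermatid-like cells. In whole libraries they were Ldhb (1.71, SE 0.72), Pdha1 (2.70, SE 1.32) and Pdk1 (0.82, SE 0.51).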

How the data were processed

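Per the labels' protocols, single cells of testis were captured with the Singleron GEXSCOPE kit and sequenced on an Illumina NovaSeq. The authors deposited per library a table of whole-number counts per gene and cell, and a normalized table in natural log units. The latter equals ln(1 + x), where x is a cell's count scaled to a total of 10000. Of the values checked, 0 differed from this by more than rounding, and that table entered no test. The aligner, build, cell filter and the nature of a count (read or molecule) were not given in the sources used here, so intervals and limits from a count of 0 (3 counts) cover counting error only. Total counts were 16756543 to 114984746 per library.

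Cells were clustered in Python 3.11.15 (scikit-learn 1.9.0, igraph 0.11.9, leidenalg 0.10.2) with 2000 variable genes less mitochondrial genes and the 8 members, 30 principal components, 15 neighbours and Leiden resolution 1. A cluster took the name of the marker list with the highest share of supporting markers. The unnamed cluster was set aside because its leading genes held more markers of another list than of its best list. These naming rules were settled after the clusters were seen, as was the gap of 0.45 in the marker index that parts the steps. Scrublet in scanpy 1.11.5 called 73 doublets (0.622% of cells), which were kept. Counts were summed per library and class and tested with edgeR 4.0.16 in R 4.3.3 (TMM, filterByExpr, robust); DESeq2 1.42.0 was an alternative, and the edgeR script was tested on simulated data. The named genes are the members, the 3 genes of the 4 lists with the smallest p in each class, and the 3 genes most like each member with at least 300 counts, of which 1 is not reported here. Members and lists were chosen with earlier results of these data known. The labels name separate rats for the replicates. Same-numbered control and stressed libraries did not deviate together in every pair, so the numbers were not taken to pair them and the fit had no block. Other settings were a plain library-size scale, no filter, each library left out, doublets out, other clusterings, the unnamed cluster counted as elongating, and thinned cells.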

Additional observations from a re-analysis of the deposited data

How the results depend on the processing

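Over the other settings and with single libraries left out, 0 of 284 refits of the members passed the threshold, and the smallest adjusted p was 0.68 by edgeR or DESeq2; 251 kept the direction and 33 reversed it, all of them far from a call. The main limits are 3 animals per group, 1 small stressed library, counts of unstated kind, and classes built from the same cells. No setting tells free RNA from expression at shares of a few percent. The replicate numbers did not pair the libraries (correlations of same-numbered deviations -0.14 to 0.24, over 0.1 for number 3 alone, in all but elongating spermatids; every library correlated best with its own number in elongating spermatids, of 2 pairs, and not in the other comparisons).

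Genes called numbered 0, 2, 1 and 1 in spermatocyte-like, round and elongating spermatid-like cells and whole libraries. With DESeq2 they were 3, 6, 11 and 3, and for the stress effect between classes 15 (round minus spermatocyte-like) and 2 (elongating minus round) in place of 0 and 0. Without the filter on low counts they were 2 in spermatocyte-like cells, 14 in elongating spermatids and 2 in whole libraries. With a replicate block they were 0 in round and 3 in elongating spermatids, with no member called, and the block turned the log2 change of Slc2a5 in elongating spermatids to -1.08 and of Slc2a1 in whole libraries to -0.012. At Leiden resolution 0.5 there was 1 in round spermatids. Leaving out 1 library gave 0 to 3 in round spermatids, 0 to 2 in elongating spermatids and 0 to 3 in whole libraries (3 without stressed replicate 1). Where this left 1 stressed library, it was assumed to vary like the others, and elongating spermatids without stressed replicate 1 are the main comparison itself.

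Other reversed log2 changes were these. Without TMM factors Slc16a7 was at -0.010 in round spermatids, and Slc2a5 at -0.013 in elongating spermatids and -0.054 in whole libraries. Without the filter Slc2a5 was at -0.024 and with DESeq2 Bsg at 0.0057 in whole libraries. With the members allowed in the clustering Emb was at 0.13 in elongating spermatids. At Leiden resolution 0.5 Slc16a7 was at -0.0016 in round spermatids, and Slc2a5, Slc16a7 and Emb at -0.30, 0.26 and 0.65 in elongating spermatids. Leaving out 1 library moved the spermatocyte-like values of Slc2a3 from -0.59 to 0.12, of Slc16a7 from -0.91 to 0.23 and of Emb from -1.84 to 0.82. It moved those in round spermatids of Slc2a3 from -0.64 to 0.28 and of Slc16a7 from -0.058 to 0.14. In elongating spermatids it moved Slc2a5 from -2.00 to 0.86, Bsg from -0.27 to 0.065 and Emb from -0.88 to 0.55. In whole libraries it moved Slc2a1 from -1.26 to 0.90, Slc2a3 from -1.05 to 0.64, Slc2a5 from -0.65 to 0.51, Slc16a7 from -0.44 to 0.057 and Bsg from -0.080 to 0.089. The cause of these reversals was not tested.

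Of 10 ratios between classes, TMM scaling turned both of Bsg (0.49 round over spermatocyte-like, 0.14 elongating over round). It gave -5.05 for Slc2a3 and 5.46 for Slc16a7 (round over spermatocyte-like), and -0.45 for Slc2a3, 1.95 for Slc2a5, 3.17 for Slc16a1, -1.22 for Slc16a7 and -1.02 for Emb (elongating over round). Leiden resolution 0.5, which counted more cells as elongating, gave 3.78 for Slc16a1, -1.06 for Slc16a7 and -0.46 for Bsg (elongating over round).

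Thinning each cell lowered the shares of cells with a count and kept the order of the classes for Slc2a3, Slc16a7 and Bsg. At 10000 counts Slc2a3 was found in 67.3% of spermatocyte-like cells and 2.99% of round spermatids, Slc16a7 in 4.24%, 67.4% and 14.5% of spermatocyte-like, round and elongating cells, and Bsg in 70.7% of round and 32.0% of elongating spermatids. At 5000 counts the shares were 54.3%, 2.29% and 0.859% for Slc2a3, 3.5%, 51.9% and 9.74% for Slc16a7, and 64.3%, 58.6% and 24.7% for Bsg.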
